A study of Mus musculus with 8 samples.

Results

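The insulin-like growth factor (IGF) axis was examined in stromal cells of the ulcerated mouse small intestine through 10 genes chosen by name: the ligands Igf1 and Igf2, the receptor gene Igf1r, the binding protein genes Igfbp2, Igfbp3, Igfbp4, Igfbp5, Igfbp6 and Igfbp7, and the protease gene Pappa. All 10 were found among the 53801 genes of the deposited table, and 8 of the 10 passed the filter on low counts that left 15945 genes to test. The cells came from LTβRYFP mice that had been given indomethacin, a drug that blocks prostaglandin synthesis and damages the gut wall. They were sorted as CD45- and CD31- cells, which lack the leukocyte and the endothelial surface marker, into a YFP-positive and a YFP-negative fraction of 4 libraries each, numbered 1 to 4. Every library came from indomethacin-treated intestine, so there was no untreated group. The labels list YFP status as the genotype and do not state the age of the mice, their strain or what drives the YFP reporter. Values for every library are printed in the order of replicates 1 to 4.

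IGF1 and IGF2 signal through the receptor tyrosine kinase IGF1R, which promotes growth and survival. IGF-binding proteins hold the ligands outside the cell and thereby limit or prolong their access to the receptor. The metalloproteinase PAPP-A, the product of Pappa, cuts IGFBP-4 and IGFBP-5 and so frees bound IGF, and the stanniocalcins STC1 and STC2 inhibit it. In the intestine, IGF1 is made largely by mesenchymal cells and acts on the epithelium and on the muscle.

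Pappa rose and Igfbp6 fell in YFP-positive cells when libraries of equal replicate number were compared with each other, and the other 6 tested members did not pass. In 4 of 4 pairs Pappa was higher in YFP-positive cells, at 1.33 times the YFP-negative level (95% interval 1.20 to 1.46), and Igfbp6 was lower in 4 of 4 pairs, at 0.541 times that level (0.390 to 0.751). The same edgeR test without the pairing called neither. Members differed far more in level than in response: per exon length, Igfbp7 stood about 2 orders of magnitude above Igfbp6. Igf2 was listed at 0 counts, which cannot be read as absence of the transcript.

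The libraries held 12481608 to 29385718 counts in genes. Those of replicate number 2 stood apart on the first principal component (35.5% of the variance), at 92.5 and 78.7 against -46.2 to -12.4 in the others. The mitochondrial share of counts was 8.27%, 8.75%, 8.07% and 12.4% in the YFP-negative libraries and 7.98%, 7.99%, 7.71% and 9.43% in the YFP-positive ones, lower in the YFP-positive library of each pair and highest in YFP-negative replicate 4. Summed epithelial markers were at 142 CPM in YFP-positive replicate 4 and at 11.4 to 36.1 CPM in the other 7 libraries. The part of the mitochondrial share in the results below was not tested, and Pappa and Igfbp6 are given with and without replicate 4. Ptprc, which encodes CD45, was at 0.877 to 12.2 CPM (the count scaled to the library total with edgeR's TMM factors). Pecam1, which encodes CD31, was at 11.1 to 46.9 CPM, and the fibroblast receptor gene Pdgfra at 1310 to 2025 CPM. Summed endothelial markers were at 26.8 to 172 CPM. These values are not scaled to exon length, and there was no ungated library, so depletion by the gate was not measured. The edgeR test on group alone called 0 of all tested genes (325 genes, or 2.04%, had an unadjusted p of 0.05 or below), and with the replicate number as a block it called 2.28% (0.696% higher and 1.59% lower in the YFP-positive fraction). With the block, 1 of the 8 tested members was called higher and 1 lower. The members and lists were chosen with earlier results of these data known, so such counts, here and below, describe them and test nothing. The members' median log2 fold change with the block was 0.037, beside 0.0048 over all genes tested. With library sizes alone in place of TMM the block test called 212 genes higher and 153 lower, against 111 and 253, and the median log2 fold change of all genes moved to 0.091, a shift that all genes share. Below, "rose" and "fell" refer to the test with the block at an adjusted p of 0.05, adjusted over all genes.

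The promoter sequences of 4 binding protein genes are shown because these genes span the range of the data: Igfbp4 and Igfbp5 were abundant, Igfbp6 fell, and Igfbp2, which lies next to Igfbp5 on the chromosome, was nearly silent. Each line gives the 250 bases before the RefSeq start site on GRCm38.p6, written 5′ to 3′ on the strand of the gene. Capitals mark matches on either strand to TATAAA, the core of the TATA box, and to GGGCGG, the GC box, which need not be bound. A match to TGTTTAC, a forkhead core, would also have been in capitals, and none was found in these 4 windows.
Igfbp4, chr11:99040994-99041243, plus strand: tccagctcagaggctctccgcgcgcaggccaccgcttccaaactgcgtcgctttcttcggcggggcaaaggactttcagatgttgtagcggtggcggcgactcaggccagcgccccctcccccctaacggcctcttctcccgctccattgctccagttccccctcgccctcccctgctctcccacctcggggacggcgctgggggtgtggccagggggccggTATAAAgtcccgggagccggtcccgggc
Igfbp5, chr1:72874866-72875115, minus strand: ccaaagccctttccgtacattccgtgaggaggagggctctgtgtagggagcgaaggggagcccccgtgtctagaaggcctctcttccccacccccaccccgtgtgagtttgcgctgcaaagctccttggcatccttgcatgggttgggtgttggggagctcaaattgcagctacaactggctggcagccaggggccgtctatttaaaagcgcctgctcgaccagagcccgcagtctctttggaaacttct
Igfbp6, chr15:102143936-102144185, plus strand: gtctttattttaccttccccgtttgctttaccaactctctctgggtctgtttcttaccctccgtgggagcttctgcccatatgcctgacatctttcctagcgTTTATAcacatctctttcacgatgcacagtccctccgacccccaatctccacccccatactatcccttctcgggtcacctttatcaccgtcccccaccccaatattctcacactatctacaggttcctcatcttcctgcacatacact
Igfbp2, chr1:72824230-72824479, plus strand: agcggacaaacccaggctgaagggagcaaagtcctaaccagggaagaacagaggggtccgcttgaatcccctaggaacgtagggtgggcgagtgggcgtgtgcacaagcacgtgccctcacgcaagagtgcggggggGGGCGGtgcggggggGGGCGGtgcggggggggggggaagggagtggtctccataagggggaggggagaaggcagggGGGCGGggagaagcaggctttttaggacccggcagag
The Igfbp4 window held TATAAA starting 28 bases before the start site, where TATA boxes usually lie. The Igfbp6 window held it only on the opposite strand and 148 bases before the RefSeq start. Start sites differ between RefSeq and GENCODE M21. The Igfbp6 window ends at 102144185 and the GENCODE gene starts at 102144362, so the bases just before that start are not covered. The Igfbp5 window, from 72874866, reaches into the GENCODE gene, which ends at 72874884. TATAAA was found in 12.4% of the 32851 windows of the same length. The Igfbp2 window shown held 3 matches to GGGCGG, and a second Igfbp2 window, not shown, held 0. The Igfbp4 and Igfbp5 windows held none, and that of Igfbp7, the most abundant member per exon length, held 4. The number of matches thus did not follow the level. GGGCGG was found in 32.7% and TGTTTAC in 3.17% of all windows. Windows of 9 of the 10 members were in the table; Igf2 and Igfbp2 have more than 1, and Pappa was the member not matched.

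The members formed a steep order of levels per kilobase of exon, the scale on which genes can be compared with each other. Igfbp7 (angiomodulin, which binds IGFs weakly and is found in matrix and vessel walls) led at 1499 ± 143 CPM per kb in the YFP-negative and 1343 ± 98.2 CPM per kb in the YFP-positive fraction (mean ± SD, n = 4). Igfbp4, the main substrate of PAPP-A, followed at 870 ± 242 and 745 ± 237 CPM per kb, and Igfbp5, a second substrate that binds strongly to matrix, at 267 ± 78.2 and 303 ± 133 CPM per kb (n = 4). This order of Igfbp7 over Igfbp4 over Igfbp5 over Pappa held in 8 of 8 libraries. The next genes were Pappa at 70.6 ± 53.1 and 92.5 ± 69.5, Igfbp3 at 73.9 ± 65.3 and 80.4 ± 69.6, and Igf1 at 55.7 ± 15.2 and 62.9 ± 13.0 CPM per kb (n = 4). These neighbours did not differ beyond their spread: Pappa exceeded Igfbp3 in 3 of 8 libraries, and Igfbp3 exceeded Igf1 in 3 of 8. Igf1r, at 18.0 ± 4.57 and 17.3 ± 3.94 CPM per kb, lay below Igf1 in 8 of 8 libraries and above Igfbp6, at 10.5 ± 2.48 and 5.83 ± 1.99 CPM per kb, in 8 of 8 (n = 4).

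**Figure D1:**
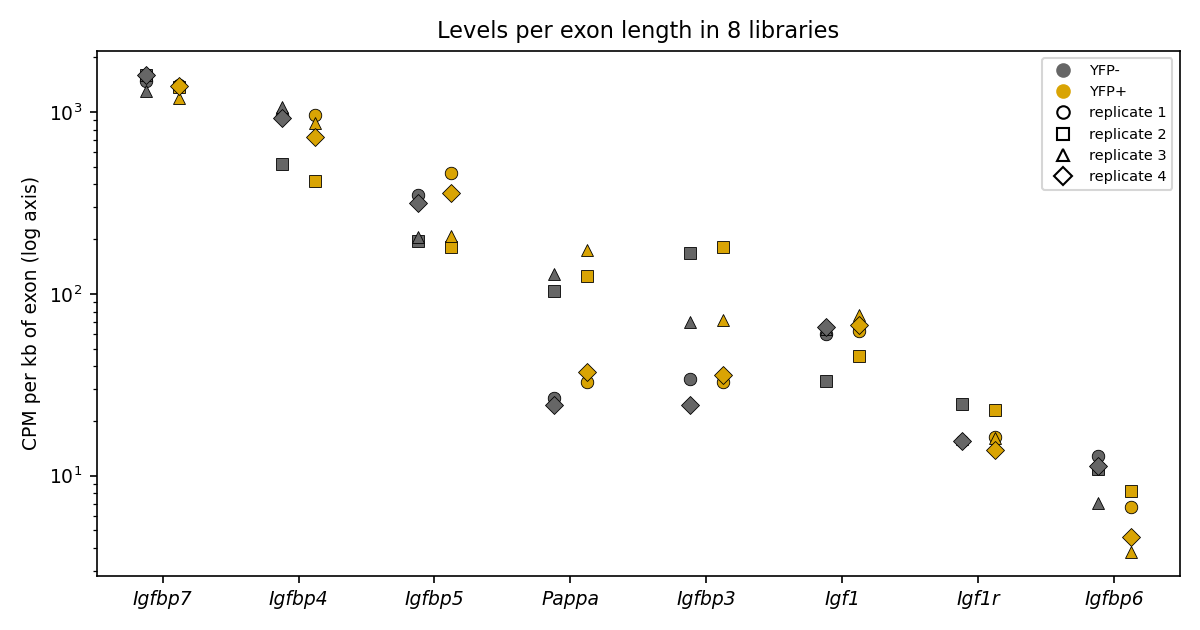
Levels of the 8 tested members in CPM per kb of exon (log axis), with 1 point per library, grey for YFP-negative and yellow for YFP-positive cells, and marker shape for the replicate number. Igfbp7, Igfbp4 and Igfbp5 lead in that order in 8 of 8 libraries, and the Pappa and Igfbp3 points spread over replicate numbers far more than between the colours.

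Among the 6 binding proteins, Igfbp7 and Igfbp4 together made up most of the message. Per exon length, Igfbp7 took 55.3% ± 6.56 of the summed IGFBP level in YFP-negative and 54.7% ± 6.42 in YFP-positive cells (SD, n = 4). Igfbp4 took 31.8% ± 8.11 and 29.7% ± 7.62, and Igfbp5 took 9.72% ± 2.28 and 11.9% ± 3.86 (SD, n = 4). Igfbp3 took 0.850% to 8.40% in the 8 libraries, and the shares of Igfbp6 were 0.387% ± 0.0847 and 0.239% ± 0.0979 (SD, n = 4). The make-up of the pool differed between replicate numbers: the share of Igfbp4 was lowest in the libraries of replicate 2, at 20.8% and 19.4%, and highest in those of replicate 3, at 40.3% and 37.0%.

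Igf1, the ligand (ENSMUSG00000020053, GRCm38 chromosome 10, 87858265 to 87937042, plus strand), gave 594, 330, 633 and 653 CPM across the YFP-negative libraries and 618, 451, 758 and 666 CPM across the YFP-positive ones. The YFP-positive library was the higher in 4 of 4 pairs, but the groups overlapped and replicate 2 was the lowest library of each. Igf1 had a log2 fold change of 0.20 with the block (95% interval 0.045 to 0.35) and did not pass (adjusted p = 0.243, edgeR; exact two-sided permutation p = 0.543 without pairing). With library sizes alone as the scaling it passed at a log2 fold change of 0.29 (adjusted p = 0.0437, edgeR). That move was about the shift of all genes, whose median went from 0.0048 to 0.091. Without YFP-negative replicate 2 the unpaired log2 fold change of Igf1 turned to -0.0076. The antisense gene Igf1os overlaps the Igf1 locus but shares 0 exonic bases with it, and had 755 counts over the 8 libraries against 106460 for Igf1.

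Igf2, the imprinted fetal ligand, whose expression drops after birth in most mouse tissues (ENSMUSG00000048583, chromosome 7, 142650766 to 142666816, minus strand), was listed at 0 counts in 8 of 8 libraries. A count of 0 allows up to 3 counts, which is 0.101 to 0.256 CPM per library. The value cannot be read as absence of the transcript. In GENCODE M21, 3596 of the 5723 exonic bases of Igf2 are also exons of the gene Gm49394 on the same strand, and how the counting treated reads that fall on more than 1 gene is not stated. The other 2127 bases (37.2%) are not shared with a gene on that strand, and Gm49394, listed under its identifier, also had 0 counts. Nearby, H19, the maternally expressed noncoding RNA of the same imprinted domain, had 86 counts in YFP-negative and 86 in YFP-positive libraries and did not pass the filter, and the antisense gene Igf2os had 6 in all.

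Igf1r, the receptor (ENSMUSG00000005533, chromosome 7, 67952827 to 68233668, plus strand), gave 262, 417, 269 and 260 CPM across the YFP-negative libraries and 275, 386, 272 and 231 CPM across the YFP-positive ones. Replicate 2 was the highest library of both groups, and 2 of 4 pairs went each way. Igf1r had a log2 fold change of -0.049 with the block, and its 95% interval spanned a 0.878-fold to a 1.06-fold level (adjusted p = 0.893, edgeR), so a larger change than that lay outside the interval. The direction turned with library sizes alone, to a log2 fold change of 0.038 with the block, which is no more than the shift of all genes under that scaling. In the unpaired test it turned to 0.14 without YFP-negative replicate 2 and to 0.040 without YFP-positive replicate 4.

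Pappa (ENSMUSG00000028370, chromosome 4, 65124174 to 65357509, plus strand) had the lowest adjusted p of the members. It gave 294, 1137, 1415 and 268 CPM across the YFP-negative libraries and 360, 1378, 1930 and 410 CPM across the YFP-positive ones. The libraries of replicates 2 and 3 were several times above those of replicates 1 and 4 in both groups, so the groups overlapped almost fully. Within pairs the YFP-positive library was 1.22, 1.21, 1.36 and 1.53 times the YFP-negative one. The log2 fold change was 0.41 ± 0.067 (SE; adjusted p = 0.00368 with the block, edgeR) and 0.39 ± 0.65 without it (adjusted p = 0.99985; exact two-sided permutation p = 0.543). Pappa kept its call in 11 of the 12 other blocked settings and lost it without replicate 3 (adjusted p = 0.0610, edgeR). Replicate 4, the pair with the largest ratio and with the library high in epithelial markers, left a log2 fold change of 0.34 with the block when omitted (adjusted p = 0.0155, edgeR). Without YFP-positive replicate 3 the unpaired log2 fold change turned to -0.12.

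**Figure D2:**
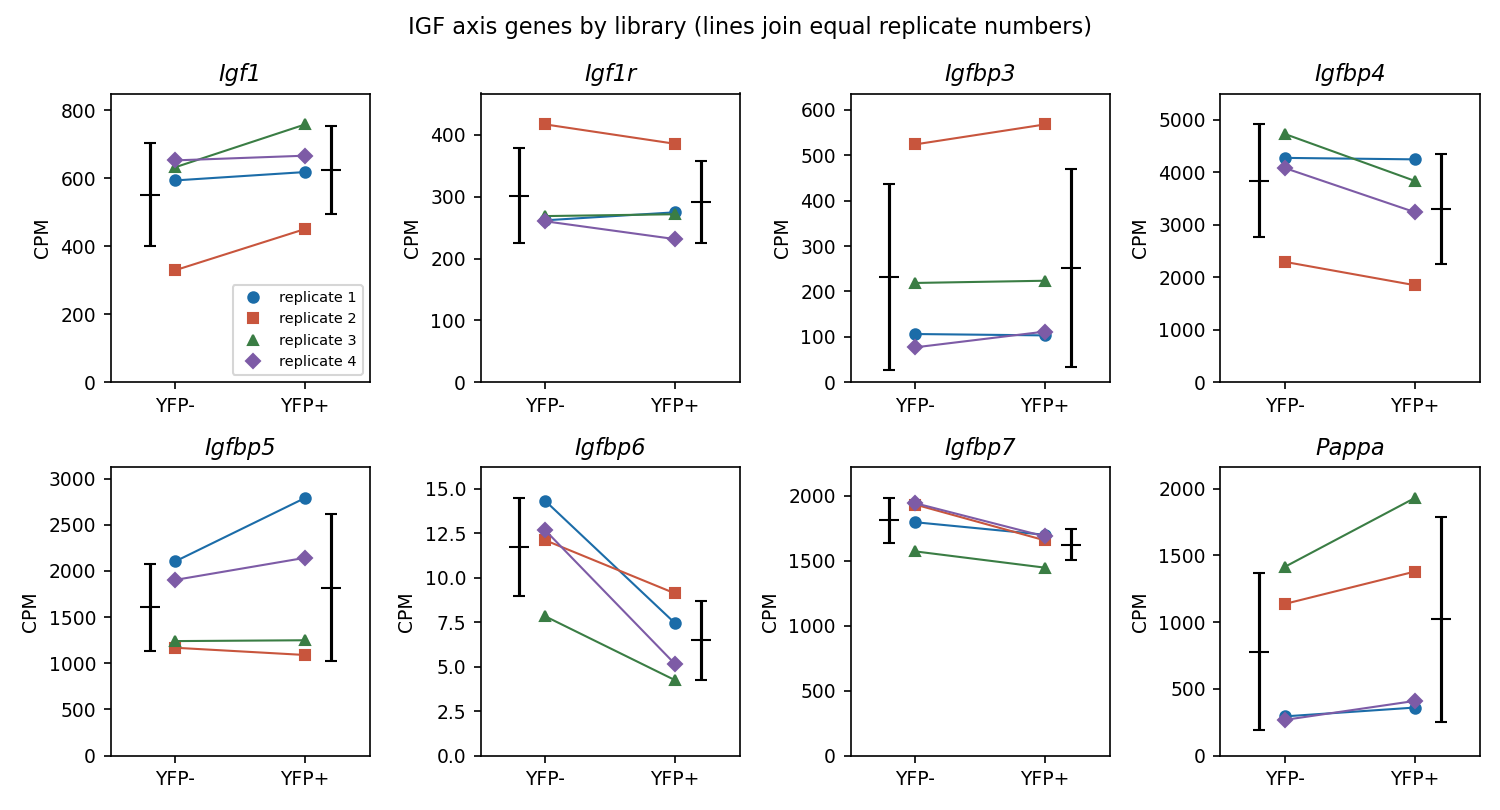
CPM of the 8 tested members in each library (vertical axes from 0), with lines joining YFP-negative and YFP-positive libraries of equal replicate number; black bars are the group mean ± SD over 4 libraries. All 4 Pappa lines rise and all 4 Igfbp6 lines fall, while replicates 2 and 3 lie far above replicates 1 and 4 for Pappa.

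The difference in Pappa between replicate numbers was among the largest in the data. From the lowest to the highest pair, its mean level changed 5.07-fold, and 2.46% of the 10534 tested genes with a mean of at least 5 CPM varied as much; the median gene varied 1.64-fold. Igfbp3 varied 5.89-fold (1.75% of genes as much), with its highest level in replicate 2. Igfbp5 ran the other way from Pappa, with 1903 to 2790 CPM in the libraries of replicates 1 and 4 and 1090 to 1249 CPM in those of replicates 2 and 3. Igfbp7 was the steadiest member, at 1.20-fold, and 92.6% of genes varied as much. The summed level of 8 adventitial fibroblast and trophocyte markers was also higher in replicates 1 and 4 (1493 and 1483 CPM for YFP-negative, 1115 and 903 CPM for YFP-positive) than in replicates 2 and 3 (1092 and 1191, 761 and 836 CPM). Grem1 made up most of that sum, at 519 to 955 CPM, and not every marker followed it: Ackr4 was higher in replicates 2 and 3, at 75.1 and 89.6 CPM for YFP-negative and 40.9 and 47.6 CPM for YFP-positive, than in replicates 1 and 4, at 62.3 and 61.9 CPM and at 29.6 and 28.5 CPM. The part of these markers in the result was not tested. Between the fractions, 2 of 8 smooth muscle markers, Lmod1 and Myh11, rose as Pappa did and 0 fell, and the summed level of the 8 was 394 to 639 CPM in YFP-negative libraries and 460 to 779 CPM in YFP-positive libraries, higher in 4 of 4 pairs and with no marker at 0. Of 8 subepithelial fibroblast markers, 2 of 7 tested (Bmp5 and Bmp7) rose and 0 fell, with sums of 1973 to 2776 CPM and 1967 to 3050 CPM. That sum was higher in 3 of 4 pairs and lower in 1, and Pdgfra made up most of it, at 1310 to 2025 CPM. The defining marker Foxl1 was at 0 in every library, which cannot be read as absence of the transcript. Over all tested genes, 0.696% rose and 1.59% fell. The part of the smooth muscle and subepithelial markers in the result was not tested either. In bulk libraries, a different share of a cell type and a different amount of RNA per cell cannot be told apart.

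By the likeness of log2 CPM over the 8 libraries, a description with libraries and depth in common, the genes closest to Pappa among 10066 were F2r, the thrombin receptor gene (Pearson r = 0.979), Slc43a2, an amino acid transporter gene (0.974), and Gpx3, the secreted glutathione peroxidase gene (0.971). The Pappa values fall into 2 sets of libraries, replicates 2 and 3 and replicates 1 and 4, so the 8 points are not independent. None of F2r, Slc43a2 and Gpx3 passed the test between fractions (adjusted p = 0.770, 0.990 and 0.910 with the block, edgeR). Those closest to Igf1 were Dcun1d2, Prps2 and Cyp2j6 (0.991, 0.990 and 0.989), which were also lowest in the replicate 2 libraries.

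Igfbp4 (ENSMUSG00000017493, chromosome 11, 99041244 to 99054392, plus strand), the substrate that PAPP-A cuts when IGF is bound to it, gave 4274, 2291, 4726 and 4078 CPM across the YFP-negative libraries and 4246, 1848, 3834 and 3239 CPM across the YFP-positive ones. It was lower in 4 of 4 pairs, by next to nothing in replicate 1 (0.993 times) and to 0.806, 0.811 and 0.794 times in replicates 2 to 4. Igfbp4 had a log2 fold change of -0.24 (95% interval -0.38 to -0.094), which did not pass with the block (adjusted p = 0.0964, edgeR). In the authors' deposited table Igfbp4 had an adjusted p of 0.00626, and it also passed here with DESeq2, limma voom, the looser count filter or without replicate 1, all with the block. Its call thus depended on the tool, the filter and replicate 1.

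Igfbp5 (ENSMUSG00000026185, chromosome 1, 72857932 to 72874884, minus strand) gave 2105, 1168, 1241 and 1903 CPM across the YFP-negative libraries and 2790, 1090, 1249 and 2142 CPM across the YFP-positive ones. It was higher in 3 of 4 pairs, mostly in replicate 1, with a log2 fold change of 0.12 (95% interval -0.039 to 0.28; adjusted p = 0.644 with the block, edgeR). Its neighbour Igfbp2 (ENSMUSG00000039323, chromosome 1, 72824503 to 72852474, plus strand), whose product can also be cut by PAPP-A, ends 5457 bases away and had 0, 0, 0 and 3 counts across the YFP-negative libraries and 14, 6, 19 and 0 across the YFP-positive ones. Without YFP-positive replicate 1 the unpaired log2 fold change of Igfbp5 (0.18) turned to -0.093. Igfbp2 did not pass the count filter; with the looser filter and the block its adjusted p was 0.905 (edgeR). The other neighbouring pair showed the same contrast of levels: Igfbp1, 3539 bases from Igfbp3 on chromosome 11, had 3 counts over all libraries and Igfbp3 had 35680.

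Igfbp3 (ENSMUSG00000020427, chromosome 11, 7206086 to 7213923, minus strand), the main IGF carrier of blood plasma, gave 106, 524, 219 and 76.8 CPM across the YFP-negative libraries and 103, 568, 224 and 111 CPM across the YFP-positive ones. Replicate 2 was the highest library of both groups, and only replicate 4 differed by more than 1.1-fold within its pair (1.45-fold). The log2 fold change of 0.16 did not pass (95% interval -0.022 to 0.34; adjusted p = 0.542 with the block, edgeR). Its unpaired log2 fold change (0.12) turned to -0.66 without YFP-positive replicate 2. The summed endothelial markers were at 58.2, 116, 37.6 and 43.8 CPM across the YFP-negative libraries, highest in replicate 2 as Igfbp3 was, and at 26.8, 75.1, 76.3 and 172 CPM across the YFP-positive ones, highest in replicate 4. Their part in the result was not tested.

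Igfbp6 (ENSMUSG00000023046, chromosome 15, 102144362 to 102149511, plus strand), a binding protein that prefers IGF2 over IGF1, gave 14.3, 12.1, 7.82 and 12.6 CPM across the YFP-negative libraries and 7.44, 9.12, 4.24 and 5.15 CPM across the YFP-positive ones. The groups overlapped only because YFP-negative replicate 3 lay below YFP-positive replicate 2. Within pairs, from log2 CPM with its prior count, the YFP-positive level was 0.523, 0.755, 0.547 and 0.411 times the YFP-negative one, and these ratios rest on 106 to 257 counts per library. The log2 fold change was -0.89 ± 0.22 (SE; adjusted p = 0.0492 with the block, edgeR) and -0.86 ± 0.32 without it (adjusted p = 0.99985; exact two-sided permutation p = 0.0571, where 0.0286 is the smallest possible). The call lay at the threshold and was lost in 5 of the 12 other blocked settings: upper-quartile factors (adjusted p = 0.0547, edgeR), library sizes alone (0.0763), and without replicate 1 (0.189), 3 (0.181) or 4 (0.313). Without replicate 4, again the pair with the largest change, the log2 fold change was -0.75. Adventitial fibroblast and trophocyte markers moved with it: 5 of 8 fell and none rose, their summed level was 1092 to 1493 CPM in the YFP-negative libraries and 761 to 1115 CPM in the YFP-positive ones, and none was at 0. Over all tested genes, 1.59% fell and 0.696% rose. The part of adventitial fibroblasts and trophocytes in the result was not tested.

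Igfbp7 (ENSMUSG00000036256, chromosome 5, 77349240 to 77408041, minus strand) gave 1798, 1934, 1573 and 1944 CPM across the YFP-negative libraries and 1701, 1658, 1448 and 1688 CPM across the YFP-positive ones. It was lower in 4 of 4 pairs by a small and even amount, with pair ratios of 0.857 to 0.946. The log2 fold change of -0.16 (95% interval -0.28 to -0.029) did not pass (adjusted p = 0.281 with the block, edgeR), though limma voom with the block put it just past the threshold (adjusted p = 0.0478). The gene shares 85 exonic bases with Polr2b on the opposite strand, and no source used here says whether reads were counted by strand.

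**Figure D3:**
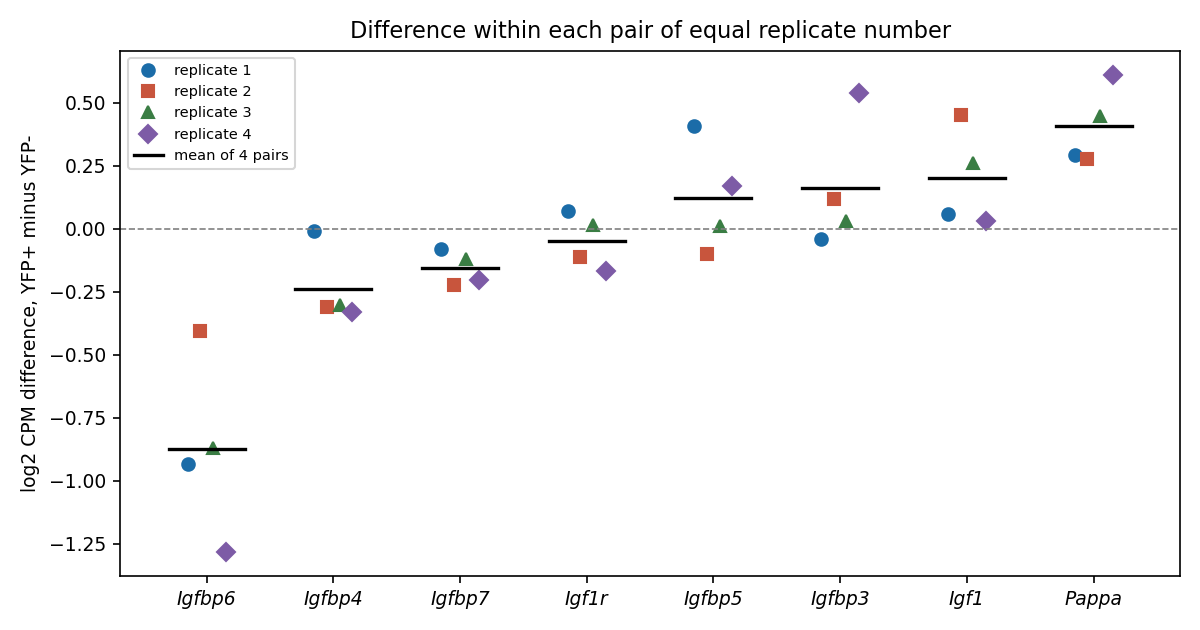
Difference in log2 CPM between the YFP-positive and the YFP-negative library of each replicate number for the 8 tested members, ordered by the mean of the 4 pairs (black line; dashed line at 0). Pappa and Igf1 lie above 0 and Igfbp6, Igfbp4 and Igfbp7 lie below 0 in all 4 pairs.

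Of the 8 tested members, 2 were higher in 4 of 4 pairs, as were 8.86% of all tested genes, and 3 were lower in 4 of 4, as were 10.2%. In none of the 8 were the groups apart without overlap, as they were in 1.55% of all tested genes. The authors' deposited table holds 3.01% of its 16502 genes with an adjusted p at 0.05 or below (0.939% higher and 2.07% lower), and 3 members are among them: Pappa (1.14e-06), Igfbp4 (0.00626) and Igfbp6 (0.0248). Its fold changes were recovered here within rounding by DESeq2 with the replicate number in the model, for 29762 of 29762 genes (largest difference 0.0005 on the log2 scale), and not by DESeq2 without it (median difference 0.074). The deposited fold changes thus match a paired model.

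The ratio of protease to substrate message does not depend on how libraries are scaled. It was computed after the values had been seen, and carries no test. Per exon length, Pappa over Igfbp4 stood at 0.0276, 0.199, 0.120 and 0.0263 in YFP-negative and at 0.0340, 0.299, 0.202 and 0.0507 in YFP-positive libraries. The YFP-positive ratio was 1.23, 1.50, 1.68 and 1.92 times the YFP-negative one. Pappa over Igfbp5 was higher in 3 of the pairs and 0.923 times in replicate 1. Pappa over its inhibitor gene Stc2 was 1.47, 1.52, 1.67 and 2.21 times the YFP-negative ratio. No ratio was computed for the other inhibitor gene, Stc1. From log2 CPM with its prior count, the YFP-positive level of Stc1 was 1.75, 1.48, 0.820 and 1.63 times the YFP-negative one. For Pappa it was 1.22, 1.21, 1.36 and 1.53 times, which is below Stc1 in replicates 1, 2 and 4.

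Of 13 further extracellular and receptor components, 10 were tested. With the block 1 fell and 0 rose, beside 1.59% and 0.696% of all tested genes. Their median log2 fold change was -0.056, beside 0.0048 over all genes tested. The one that fell was Stc2, which encodes a secreted inhibitor of PAPP-A, with 71.9, 30.3, 99.8 and 86.6 CPM across the YFP-negative libraries and 59.9, 24.2, 81.5 and 59.8 CPM across the YFP-positive ones. Each YFP-positive library was below its partner, and the log2 fold change was -0.36 ± 0.086 (SE; adjusted p = 0.0416 with the block, edgeR). With the block, that call was lost with library sizes alone and without replicate 1, 3 or 4, at adjusted p values of 0.0869 to 0.315 (edgeR). The related inhibitor gene Stc1 was at 10.8 ± 5.76 and 16.5 ± 12.2 CPM (n = 4), higher in 3 of 4 pairs (log2 fold change 0.46, adjusted p = 0.407 with the block, edgeR). Its unpaired log2 fold change of 0.61 turned to -0.010 without YFP-positive replicate 1, and it shares 229 exonic bases with an antisense gene.

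Pappa2, the second pappalysin gene, was lower in each pair in which Pappa was higher. It gave 43.2, 36.6, 106 and 28.1 CPM across the YFP-negative libraries and 34.5, 29.5, 94.7 and 24.1 CPM across the YFP-positive ones, lower in 4 of 4 pairs (log2 fold change -0.25, 95% interval -0.45 to -0.059; adjusted p = 0.236 with the block, edgeR). Like Pappa it was highest in replicate 3, but unlike Pappa it was not high in replicate 2. Htra1, a serine protease gene whose product can cut IGFBPs, was at 128 ± 11.1 and 154 ± 22.3 CPM (n = 4) and higher in 4 of 4 pairs (log2 fold change 0.26; adjusted p = 0.0812 with the block, edgeR). It passed with limma voom, with library sizes alone and with the looser filter, each with the block. Library sizes alone took its log2 fold change to 0.35, a move of about the shift of all genes. The insulin receptor gene Insr was at 118 ± 23.3 and 131 ± 31.0 CPM, and Igf2r, which encodes the scavenging IGF2 and mannose 6-phosphate receptor, at 189 ± 65.7 and 174 ± 58.0 CPM (n = 4; adjusted p = 0.465 and 0.663 with the block, edgeR). Lrp1, the endocytic receptor gene that was the most abundant of the 10 tested components in CPM, was at 5981 ± 1053 and 5206 ± 1086 CPM (n = 4) and lower in 4 of 4 pairs (adjusted p = 0.195 with the block, edgeR). It passed in the authors' deposited table (adjusted p 0.0337) and here with DESeq2, limma voom and the looser filter, each with the block.

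The 28 tested genes of IGF and insulin signalling inside the cell had a median log2 fold change of -0.032 with the block. Among them 0 rose, beside 0.696% of all tested genes, and 1 fell, beside 1.59%. This was Grb10, an adaptor gene whose product binds IGF1R and the insulin receptor and restrains them, with 305, 185, 365 and 361 CPM across the YFP-negative libraries and 253, 157, 302 and 292 CPM across the YFP-positive ones. The 4 pairs gave nearly the same ratio, 0.810 to 0.851, and the log2 fold change was -0.27 ± 0.061 (SE; adjusted p = 0.0268 with the block, edgeR). The call was lost in the same 4 settings as that of Stc2, at adjusted p values of 0.0877 to 0.190 (edgeR). Irs2, the most abundant gene of the list in CPM and a docking protein for both receptors, was at 386 ± 139 and 367 ± 126 CPM (n = 4; adjusted p = 0.819 with the block, edgeR). Its log2 fold change of -0.075 with the block became 0.011 with library sizes alone, no more than the shift of all genes.

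None of the 6 genes of the growth hormone arm, which drives Igf1 in liver, passed with or without the block. Of all tested genes, 2.28% passed with the block and 0 without it. Ghr, the growth hormone receptor gene and the most abundant gene of that arm in CPM, was at 253 ± 49.0 and 258 ± 39.9 CPM, with 2 pairs going each way (n = 4; log2 fold change 0.041, 95% interval -0.11 to 0.19; adjusted p = 0.930 with the block, edgeR). The interval spanned a 0.925-fold to a 1.14-fold level, and the direction turned to -0.024 without replicate 2.

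Of 6 genes listed for the Igf2 locus, its imprinted network and IGF2 mRNA binding, 3 were tested. With the block 2 of these fell, beside 1.59% of all tested genes. H19 and Igf2os, the genes at the Igf2 locus, were not tested, and Plagl1 lies on chromosome 10. Plagl1, an imprinted zinc finger gene of the Igf2 and H19 network, gave 122, 86.3, 67.8 and 72.9 CPM across the YFP-negative libraries and 65.6, 61.5, 47.5 and 42.9 CPM across the YFP-positive ones. Every YFP-positive library lay below every YFP-negative one, and the log2 fold change was -0.67 ± 0.089 (SE; adjusted p = 6.5e-04 with the block, edgeR; exact two-sided permutation p = 0.0286 without pairing, the smallest possible). The call held in 12 of the 12 other blocked settings. Igf2bp2, which encodes an RNA-binding protein with Igf2 mRNA among its targets, fell from 55.8 ± 11.7 to 43.0 ± 10.8 CPM (n = 4; log2 fold change -0.38, adjusted p = 0.0422 with the block, edgeR). Its call was lost in the same 5 settings as that of Igfbp6, at adjusted p values of 0.0514 to 0.210 (edgeR).

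**Figure D4:**
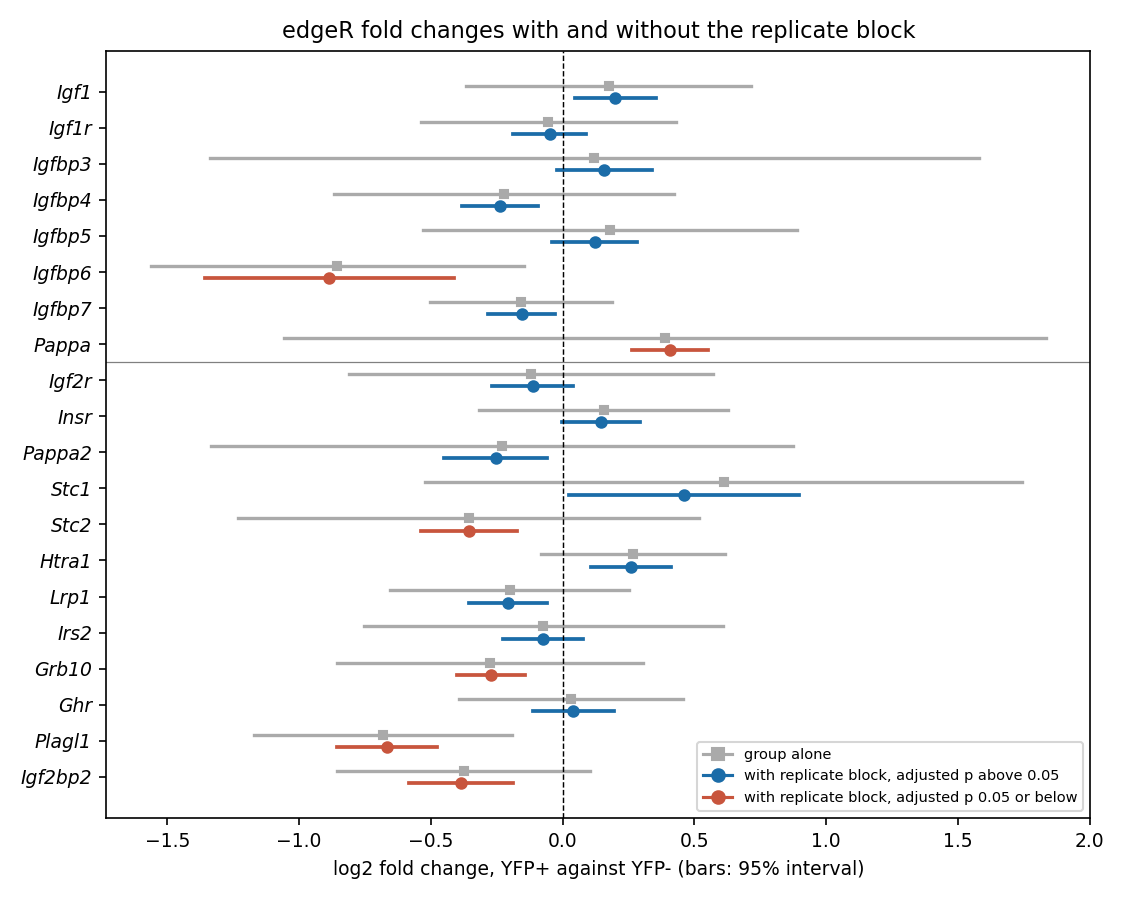
Log2 fold changes of YFP-positive against YFP-negative cells with 95% intervals for the members (above the line) and the other named genes, from edgeR on group alone (grey squares) and with the replicate block (circles; red at an adjusted p of 0.05 or below). The estimates are close in both fits, and the intervals are narrower with the block; red circles mark Igfbp6, Pappa, Stc2, Grb10, Plagl1 and Igf2bp2.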

How the data were processed

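The 8 libraries (4 YFP-positive, 4 YFP-negative) were made from sorted cells with a low-input kit for stranded total RNA, per the labels' protocols. The submitters' processing notes name cutadapt 3.4, STAR 2.7.3a, featureCounts 2.0.1, DESeq2 and GRCm38, without annotation release, settings or strand option. Raw counts per gene were deposited, per the file headers, with the authors' size-factor normalised counts (a score), their mean signal, and the authors' fold change as a ratio, log2 fold change, p-values and adjusted p-values.

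Counts were tested with edgeR 4.0.16 in R 4.3.3 (filterByExpr, TMM, robust quasi-likelihood, two-sided, Benjamini-Hochberg over 15945 genes) on group alone, and again adding the replicate number as a block. Libraries of equal number deviated together from their group means (correlations 0.233 to 0.487, against at most 0.0456 for different numbers). On this ground libraries of equal number were treated as pairs, which the labels do not state. No source says that libraries come from separate mice, so the p-values reflect spread between these libraries, which may be technical. No replicates were alike within counting noise (chi-square over degrees of freedom at least 50.9). Log2 CPM used a prior count of 2. Exon lengths, positions and overlaps are from GENCODE M21, which holds 53620 of the 53801 identifiers, and promoters from RefSeq. Other settings were DESeq2 1.42.0, voom with quality weights (limma 3.58.1), other scaling factors or none, a filter of any count of at least 1 (the looser filter), a stricter CPM filter, leaving out mitochondrial genes, and leaving out libraries.

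The members and gene lists were chosen with earlier results of these data known. Named besides the members were 8 fixed genes, up to 2 called genes per direction in each of 4 lists (by adjusted p) or else the most abundant in CPM, and the 3 genes most like Pappa and Igf1.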

Additional observations from a re-analysis of the deposited data

Results flagged for a closer look

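In a group of 4 libraries, 1 value was far from the other 3 in 3 of the 40 groups examined (20 genes in 2 fractions), and chance alone gives about 1 in 20. Igf1r was at 417 CPM in YFP-negative replicate 2, above the others, and the YFP-positive replicate 2 library was also its group's highest. Igfbp7 was at 1448 CPM in YFP-positive replicate 3, below the others, and was lowest in YFP-negative replicate 3 too. Pappa2 was at 94.7 CPM in YFP-positive replicate 3, above the others, as it was in YFP-negative replicate 3.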

How the results depend on the processing

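Without the block, 0 genes were called in either direction by edgeR under any setting or with any library left out, and DESeq2 called 2 lower. With the replicate block the counts higher and lower were 111 and 253 by edgeR, 155 and 341 by DESeq2, 221 and 392 by limma voom, 99 and 265 with RLE factors, 119 and 216 with upper-quartile factors, 212 and 153 with library sizes alone, 253 and 420 with any count of at least 1, 131 and 285 with a CPM of at least 2 in 4 libraries, and 113 and 254 without mitochondrial genes. Leaving out replicates 1, 2, 3 and 4 with the block gave 73, 130, 38 and 47 higher and 121, 296, 119 and 120 lower. The cause was not tested. The block changed the calls of Pappa, Igfbp6, Stc2, Grb10, Plagl1 and Igf2bp2, and of the called marker genes, and of no other member or pathway gene named. The sign of Igf1r turned with library sizes alone (log2 fold change 0.031, and 0.038 with the block), as did that of Irs2 (0.0068 and 0.011), by no more than the shift of all genes, whose median moved to 0.091 in both fits. The sign of Ghr turned with the block without replicate 2 (-0.024). Leaving out single libraries without the block turned the sign of 10 genes, with log2 fold changes from -0.0076 to 0.30 for Igf1, -0.22 to 0.14 for Igf1r, -0.66 to 0.90 for Igfbp3, -0.093 to 0.36 for Igfbp5, -0.12 to 0.85 for Pappa, -0.32 to 0.082 for Igf2r, -0.87 to 0.35 for Pappa2, -0.010 to 1.05 for Stc1, -0.28 to 0.16 for Irs2 and -0.10 to 0.11 for Ghr. Igf2, Igfbp2, H19 and Igfbp1 had too few counts to test.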
